A study of Mus musculus with 14 samples.

Results

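Transcript levels of 10 cytoskeletal genes were followed in fibroblasts grown from mouse embryos, the cells of connective tissue, during starvation. The genes were 3 α-tubulin genes (Tuba1a, Tuba1b, Tuba1c), 6 β-tubulin genes (Tubb2a, Tubb2b, Tubb3, Tubb4b, Tubb5, Tubb6) and Vim, which encodes vimentin. They were taken by symbol from a table of 40800 genes, each by the transcript row with the highest sum of reads, and all 10 were among the 17696 genes that passed the filter on low counts. Tubb3 and Vim had 2 transcript rows, and the other 8 genes had 1. The series holds 14 libraries of total RNA, with 7 groups of 2. Control cells (0 h) stayed in high-glucose medium with ordinary serum, and starved cells were washed and kept for 3, 6 or 12 h in medium lacking either amino acids or glucose, with dialyzed serum. Cells of every group were detached with trypsin and stored frozen, the control in ordinary serum and the starved cells in dialyzed serum. There was no control at 3, 6 or 12 h. Starvation, time in culture, the wash and medium change, and this handling therefore cannot be told apart in a comparison with the control. Starvations at the same time share the handling. The labels give no genotype, strain or age, and they leave unsaid whether the replicates were separate cultures, so that p-values cover just the spread between these samples, possibly a technical one.

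Microtubules are hollow tubes built of paired α- and β-tubulin, and they carry vesicles and organelles, shape the cell and form the mitotic spindle. Each tubulin chain is encoded by several genes, called isotypes, whose proteins are nearly the same except at their tails. Cells control tubulin mRNA through the nascent protein: when free tubulin is in excess, TTC5 recognises the first residues of a tubulin chain as it leaves the ribosome, methionine, arginine and glutamate followed by cysteine in α-tubulin or isoleucine in β-tubulin. TTC5 then recruits SCAPER and the CCR4-NOT deadenylase, and the mRNA is degraded. Vimentin forms intermediate filaments, a separate network of fibroblasts and other mesenchymal cells, and its chain lacks this start.

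The first 24 coding bases are shown because they encode the stretch that sets tubulins apart from vimentin in this pathway. They were read from GENCODE M21 transcripts of the same identifiers, 5′ to 3′, with the first 12 bases (4 codons) in capitals:
Tuba1a: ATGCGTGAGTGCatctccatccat
Tuba1b: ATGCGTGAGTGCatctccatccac
Tuba1c: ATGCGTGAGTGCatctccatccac
Tubb2a: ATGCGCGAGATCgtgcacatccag
Tubb2b: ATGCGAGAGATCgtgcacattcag
Tubb3: ATGAGGGAGATCgtgcacatccag
Tubb4b: ATGAGGGAGATCgtgcacctgcag
Tubb5: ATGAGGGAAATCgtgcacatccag
Vim: ATGTCTACCAGGtctgtgtcctcg
In 8 of 8 tubulins shown, the codons at positions 2 and 3 encode arginine and glutamate. The codon at position 4 encodes cysteine in 3 of 3 α-tubulins and isoleucine in 5 of 5 β-tubulins. The β-tubulins reach the same residues through 4 different runs of 12 bases, while the 3 α-tubulins share 1. Vim has neither codon.

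Promoter sequence is shown for Tubb5 and Tubb4b, a pair of β-tubulin genes with unlike time courses, as described below. The windows run from 250 to 11 bases before the start of transcription, 5′ to 3′ on the strand of the gene, and come from RefSeq on GRCm38.p6 (Tubb5 at chr17:35838312-35838551 and Tubb4b at chr2:25224713-25224952, both on the minus strand). Capitals mark the matches, on either strand, to a CCAAT box (CCAAT or ATTGG) or a GC box (GGGCGG or CCGCCC):
Tubb5: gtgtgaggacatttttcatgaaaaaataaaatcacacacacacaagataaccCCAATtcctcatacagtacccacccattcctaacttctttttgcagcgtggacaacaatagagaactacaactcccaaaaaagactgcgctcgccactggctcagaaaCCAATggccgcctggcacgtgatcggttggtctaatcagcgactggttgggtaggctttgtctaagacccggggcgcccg
Tubb4b: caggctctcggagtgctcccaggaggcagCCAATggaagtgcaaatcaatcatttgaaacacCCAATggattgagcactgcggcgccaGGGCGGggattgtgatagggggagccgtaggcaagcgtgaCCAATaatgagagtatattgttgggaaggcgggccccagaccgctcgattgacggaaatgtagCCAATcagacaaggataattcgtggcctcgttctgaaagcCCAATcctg
The Tubb5 window has 2 CCAAT matches, at 198 and 90 bases before the start. Tubb4b has 5, at 221, 188, 122, 59 and 19 bases, and 1 GC box at 162 bases, and no match overlaps another. Over 250 bases upstream, a CCAAT match occurred in 6 of the 8 genes of the set that had a promoter entry, against 33.8% of 32851 mouse promoters, and a GC box in 5 of 8 against 32.7%. A TATA box (TATAAA or TTTATA) occurred in 2 of 8 (Tubb2a and Vim) against 12.4%, and the palindrome TGACGTCA in 1 of 8 (Tubb2a) against 1.55%. Such matches are a description of letters, not of binding. Tubb2b and Tubb6 had no entry.

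The libraries held 35270767 to 55349659 reads with 1 transcript per gene. Libraries of a group differed beyond sampling noise in 7 of 7 groups, with chi-square values of 3.45 to 14.6 per degree of freedom, the highest in the control. Control replicate 1 lay above control replicate 2 for 10 of the 10 genes. Of 13 fibroblast markers, Fn1 (1440 to 3079 CPM) and Col1a1 (301 to 2486 CPM) were abundant, whereas Thy1 stayed under 0.1 CPM and Dcn at 0 to 0.542 CPM in all 14 libraries. CPM are read counts brought to the same library size with TMM factors. A gene is said to rise or fall where its p from edgeR's quasi-likelihood test, adjusted over 17696 genes by Benjamini-Hochberg, was under 0.05, and fold changes are log2 with their standard error (SE).

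The genes made up 1.29% and 1.16% of all reads in the control libraries. On the scale of CPM per kb of transcript, which allows levels of different genes to be compared, Tuba1b was highest with 1559 ± 114 (SD, n = 2). Vim (1024 ± 73.7), Tubb5 (921 ± 66.4), Tuba1a (890 ± 67) and Tuba1c (857 ± 87.5) came next. The libraries of Tubb5, Tuba1a and Tuba1c overlapped, and the lower Vim library (972) lay just above the higher one of Tubb5 (968). Tubb4b followed with 276 ± 25 and Tubb6 with 167 ± 11.4. Tubb2a (55.5 ± 8.1), Tubb2b (37.1 ± 4.99) and Tubb3 (14.9 ± 1.6) were the least abundant in CPM per kb. The share of all reads fell to 0.217% and 0.208% after 12 h without amino acids and was 0.642% and 0.657% after 12 h without glucose.

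Nearly the whole set was lower than the 0 h control after 3 h without amino acids, and all of it was by 6 h. Without glucose fewer genes were lower, and by less. In the counts that follow, the share of all 17696 genes called the same way is the background. After 3 h without amino acids, 9 of 10 genes fell and 0 rose, where 32.1% of genes fell and 27.9% rose. The median log2 fold change was -0.43, against -0.07 over all genes. At 6 h 10 of 10 fell (background 33.3% lower, 32.3% higher) with a median of -1.40 against -0.01, and at 12 h 10 of 10 fell (background 32.0% lower, 34.9% higher) with a median of -2.65 against 0.06. Without glucose, 4 fell and 1 rose at 3 h (background 23.1% lower, 20.3% higher) with a median of -0.14 against -0.04. At 6 h 7 fell and 1 rose (background 24.2% lower, 23.3% higher), with a median of -0.39 against -0.01. At 12 h 8 fell and 1 rose (background 28.0% lower, 30.4% higher), with a median of -1.32 against 0.01. The single rise was Vim at 3 h and Tubb3 at 6 and 12 h. Because the RNA came from bulk cultures, fewer cells of a type and less RNA per cell cannot be told apart. Scaling by library totals in place of TMM moved the share of higher genes among all calls from 46.5% to 34.2% at 3 h without amino acids, and from 46.8% to 25.7% and from 49% to 33.1% at 3 and 6 h without glucose. With library totals 8 genes of the set were lower and 0 higher at 3 h without glucose.

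**Figure D1:**
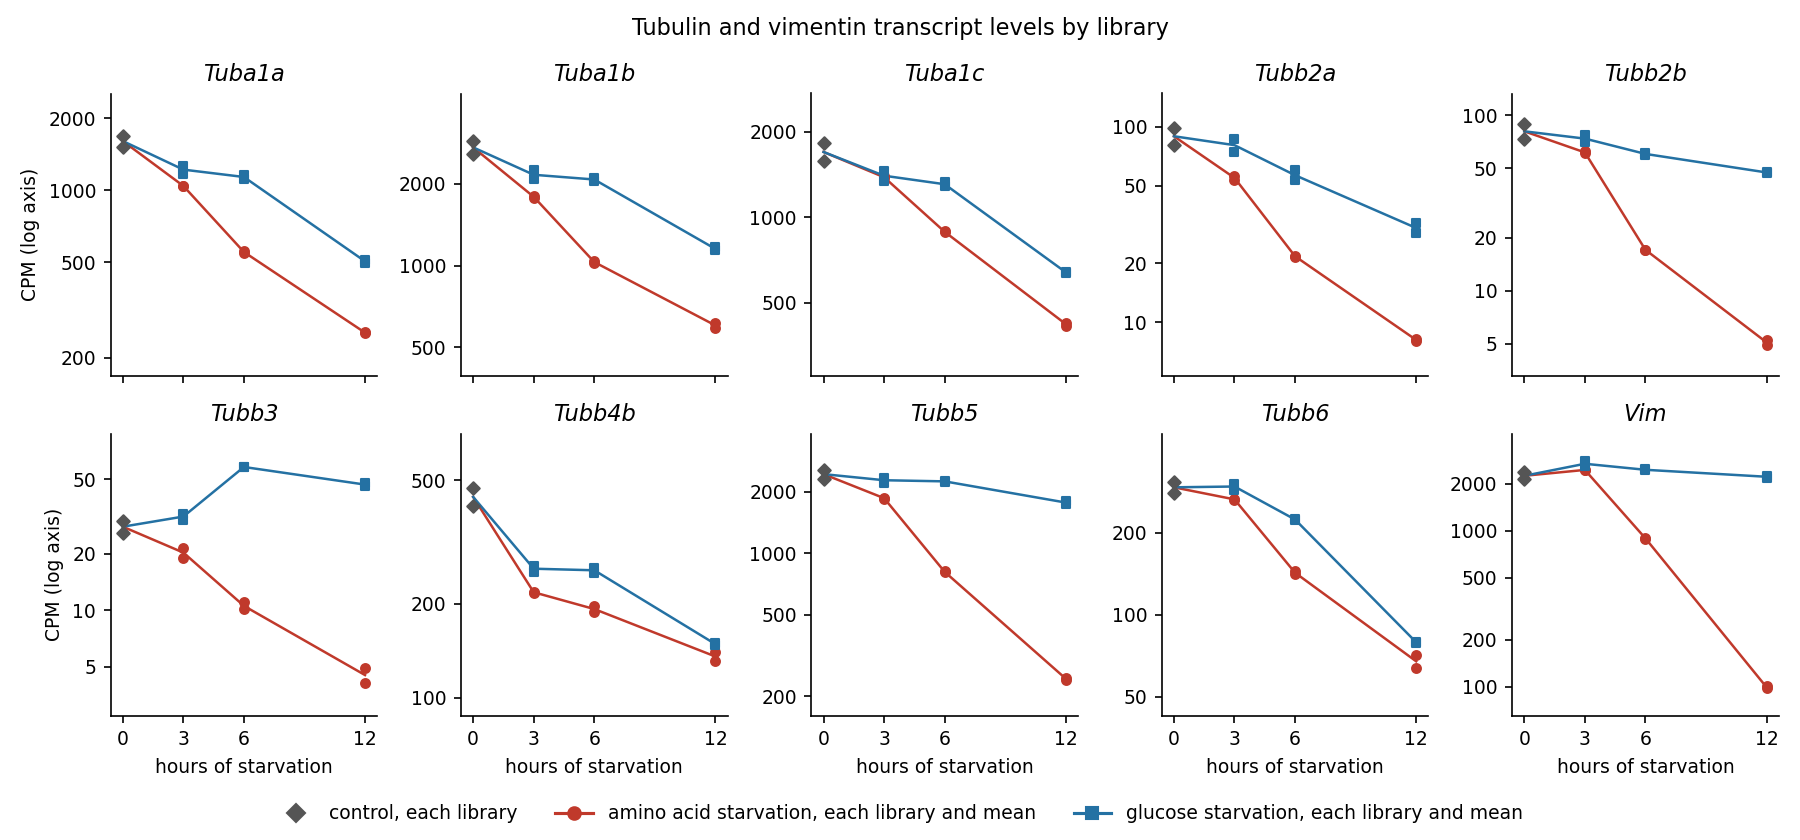
CPM of the 10 genes in each library (points) against hours of starvation, with lines through the group means and a separate log axis for each gene. The amino acid series ends at 12 h below the glucose series in 10 of 10 panels, and the gap is widest for Vim, Tubb3, Tubb2b and Tubb5.

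The α-tubulin genes fell at every time of both starvations. Tuba1a, the α-isotype prominent in developing neurons, had 1690 and 1519 CPM in the control, 1046 and 1038 after 3 h without amino acids, 557 and 547 after 6 h, and 256 and 252 after 12 h. Without glucose it had 1170 and 1268 CPM at 3 h, 1111 and 1160 at 6 h, and 511 and 498 at 12 h. Every starved library lay below both control libraries, and no groups overlapped. Its log2 fold change at 12 h was -2.66 without amino acids (SE 0.06, edgeR adjusted p = 5.63e-25) and -1.67 without glucose (SE 0.057, edgeR adjusted p = 3.62e-20).

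Tuba1b, a widely expressed α-isotype, had 2858 and 2577 CPM in the control. It had 1808 and 1769 CPM, 1035 and 1025 CPM, and 614 and 591 CPM at 3, 6 and 12 h without amino acids, and 2071 and 2240, 2040 and 2102, and 1136 and 1166 CPM at the same times without glucose. Only the groups at 3 and 6 h without glucose overlapped, and the fall there came mostly before 3 h and after 6 h. At 12 h the log2 fold change of Tuba1b was -2.17 without amino acids (SE 0.058, edgeR adjusted p = 3.52e-23) and -1.24 without glucose (SE 0.057, edgeR adjusted p = 2.47e-17).

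Tuba1c, the third member of this α-tubulin cluster, had 1821 and 1576 CPM in the control, 1395 and 1372, 891 and 885, and 425 and 414 CPM along amino acid starvation, and 1345 and 1456, 1286 and 1328, and 642 and 636 CPM along glucose starvation. At 3 h its libraries of both starvations overlapped, below both control libraries. Its fold change at 3 h was -0.30 without amino acids (SE 0.059, edgeR adjusted p = 7.35e-05), against -0.62 for Tuba1a and -0.60 for Tuba1b. At 12 h it was -2.02 without amino acids (SE 0.061) and -1.41 without glucose (SE 0.06). These 3 genes are near copies of each other: their coding sequences are 97.1% to 98.3% identical, and of all stretches of 100 bases in the transcripts, 38.4% (Tuba1a), 52.3% (Tuba1b) and 53.4% (Tuba1c) also occur in another gene of the set. How reads that match several copies were assigned is not given in the sources used here, so the division among the 3 genes is uncertain. In GENCODE M21, Tuba1a and Tuba1b also overlap Gm49450 on the same strand, and Tuba1b overlaps Gm41396 on the other. Their summed CPM does not depend on the division of reads among them, but it would depend on whether shared reads were dropped or counted more than once. It went from 6368 and 5672 in the control to 1295 and 1258 after 12 h without amino acids, and to 2289 and 2301 after 12 h without glucose.

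Tubb5, the main β-tubulin of many dividing cells, fell steeply without amino acids and little without glucose. It had 2565 and 2316 CPM in the control, then 1871 and 1852, 807 and 818, and 247 and 241 CPM at 3, 6 and 12 h without amino acids. Each time was below the one before, with no overlap. The log2 fold changes were -0.39 (SE 0.054), -1.59 (SE 0.056) and -3.32 (SE 0.06, edgeR adjusted p = 5.15e-27). Without glucose Tubb5 had 2211 and 2346 CPM at 3 h, 2242 and 2257 at 6 h, and 1741 and 1803 at 12 h. The libraries at 3 h overlapped the control, those at 6 h lay just under it, and those at 12 h were clearly below. Here the fold change was -0.10 at 3 h (SE 0.054, edgeR adjusted p = 0.145), -0.12 at 6 h (SE 0.054, edgeR adjusted p = 0.0751) and -0.46 at 12 h (SE 0.054, edgeR adjusted p = 1.95e-08). Without control replicate 2 the values at 3 and 6 h became -0.17 and -0.19 and passed the threshold (edgeR adjusted p = 0.0141 and 0.0069).

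Tubb4b, a widely expressed β-isotype that is also abundant in cilia, had the largest fall of the set at 3 h of both starvations. Its control libraries had 470 and 413 CPM, and those without amino acids 219 and 217 at 3 h, 197 and 188 at 6 h, and 140 and 131 at 12 h. Without glucose it had 254 and 265 CPM at 3 h, 252 and 261 at 6 h, and 147 and 150 at 12 h. All starved libraries lay below both controls, the 3 and 6 h groups without glucose overlapped, and at 12 h the starvations were close to each other. Tubb4b overlaps Fam166a on the other strand, and the source of reads there cannot be told apart. Its fold change at 3 h was -1.02 without amino acids (SE 0.059, edgeR adjusted p = 5.9e-15) and -0.77 without glucose (SE 0.059, edgeR adjusted p = 7.85e-12). From 3 to 6 h it moved by -0.18 and -0.02 respectively. At 12 h it was -1.70 (SE 0.06) and -1.57 (SE 0.06).

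Tubb2a and Tubb2b, class II β-tubulins of the nervous system and other tissues, had the deepest falls among tubulins at 6 and 12 h without amino acids. Tubb2a had 98.6 and 80.2 CPM in the control, then 56.3 and 53.2, 21.6 and 21.9, and 8.24 and 8 CPM at 3, 6 and 12 h. Tubb2b had 88.7 and 73.3 CPM in the control, then 60.6 and 62.2, 17.1 and 17.1, and 4.92 and 5.23 CPM. For both genes the groups were separate at every time. The fold change at 12 h was -3.46 for Tubb2a (SE 0.1, edgeR adjusted p = 8.91e-21) and -3.99 for Tubb2b (SE 0.093, edgeR adjusted p = 1.26e-24). Without glucose the pair parted: Tubb2a had 74.5 and 86.5, 53.2 and 59.8, and 32.1 and 28.6 CPM, and Tubb2b 70 and 77.2, 59.4 and 61, and 47.3 and 47.1 CPM. At 3 h both overlapped the control, and neither passed the test (-0.15 with SE 0.086 for Tubb2a, -0.14 with SE 0.075 for Tubb2b, edgeR adjusted p = 0.166 and 0.144). Without control replicate 2 both did, at -0.30 and -0.27 (edgeR adjusted p = 0.00896 and 0.00576), and without control replicate 1 both were at 0.00. At 12 h the fold change was -1.56 for Tubb2a (SE 0.09) and -0.78 for Tubb2b (SE 0.075). The coding sequences of the pair are 96.5% identical and share 35.9% and 26.1% of their 100-base stretches, so that the split between them is uncertain. The pair summed to 187 and 153 CPM in the control, 13.2 and 13.2 after 12 h without amino acids, and 79.4 and 75.6 after 12 h without glucose.

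Tubb6, the class V β-tubulin, which many tissues express, had 308 and 279 CPM in the control, 266 and 264 after 3 h without amino acids, 144 and 141 after 6 h, and 71 and 63.7 after 12 h. Without glucose it had 288 and 303 CPM at 3 h, 224 and 223 at 6 h, and 79.6 and 78.6 at 12 h. It was inside the control range at 3 h without glucose and far below it at 12 h of both starvations. The fold change at 12 h was -2.12 without amino acids (SE 0.061, edgeR adjusted p = 1.75e-22) and -1.89 without glucose (SE 0.06, edgeR adjusted p = 5.95e-21), the deepest fall of the 10 genes without glucose. Most of that fall, -1.50, lay between 6 and 12 h. The value of -0.15 at 3 h without amino acids (SE 0.058, edgeR adjusted p = 0.0294) was called, but not with RLE factors (-0.11, edgeR adjusted p = 0.0987) and not without control replicate 1 (-0.08, edgeR adjusted p = 0.331) or without either library of that group (-0.15 and -0.14). At 3 h without glucose the value of 0.01 (SE 0.058) turned to -0.16 with library totals.

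Tubb3, the class III β-tubulin used as a marker of neurons and also made by cultured fibroblasts at low levels, moved in opposite directions. It had 30 and 25.8 CPM in the control and 21.6 and 19, 11 and 10.1, and 4.92 and 4.1 CPM along amino acid starvation. Along glucose starvation it had 30.4 and 32.8, 57.9 and 58.3, and 46 and 47.6 CPM. No groups overlapped: its order from high to low was 6, 12 and 3 h without glucose, the control, then 3, 6 and 12 h without amino acids. Without amino acids its fold change at 12 h was -2.63 (SE 0.1, edgeR adjusted p = 4.61e-19). Without glucose the fold change was 0.18 at 3 h (SE 0.089, edgeR adjusted p = 0.104, and 0.29 with an edgeR adjusted p of 0.027 without control replicate 1), 1.06 at 6 h (SE 0.087, edgeR adjusted p = 3.69e-11) and 0.75 at 12 h (SE 0.087, edgeR adjusted p = 1.71e-08). Of 10 neuronal markers, Map2 (14.9 to 30 CPM over all libraries) and Stmn2 (4.62 to 23.7) carried most of the sum. None of the others exceeded 2.83 CPM. The sum was lower than in the control at 6 and 12 h of both starvations. It was 46.8 to 50.4 CPM in the control, and 33.8 to 36.2 at 6 h and 34 to 35.5 at 12 h without glucose. Without amino acids it was 36.7 to 40.1 CPM at 6 h and 35.3 to 36.2 at 12 h. Rbfox3, Snap25, Dcx and Nefl stayed under 0.1 CPM in every library. The part of these markers in the change of Tubb3 was not tested. Tubb3 also lies within a longer annotated transcript, Gm20388, and whether reads were counted by strand is not given in the sources used here. With its second transcript row the sign and the call of Tubb3 were the same in all 12 comparisons. Rows of 1 gene repeat each other's reads, so this does not bear on the overlap or the strand.

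Vim was not among the genes that fell at 3 h, and by 12 h without amino acids it had fallen the most of the 10. It had 2360 and 2132 CPM in the control, 2445 and 2453 after 3 h without amino acids, 886 and 900 after 6 h, and 101 and 97.9 after 12 h. The 3 h libraries lay just above the control, and those at 12 h were at 4.42% of it. The fold change was 0.12 at 3 h (SE 0.055, edgeR adjusted p = 0.0533), -1.33 at 6 h (SE 0.056, edgeR adjusted p = 2.92e-18) and -4.50 at 12 h (SE 0.064, edgeR adjusted p = 4.19e-29). The 3 h value was called higher by DESeq2 (0.16, adjusted p = 0.00464), with RLE factors (0.16, edgeR adjusted p = 0.0116) and without control replicate 1 (0.20, edgeR adjusted p = 0.00466), among others. It was 0.05 without control replicate 2 (edgeR adjusted p = 0.47) and turned to -0.05 with library totals (edgeR adjusted p = 0.413). From 3 to 6 h Vim changed by -1.46 and from 6 to 12 h by -3.17, which corresponds to a halving of the level every 2.06 h and 1.89 h if the fall was even within each interval. Without glucose Vim had 2577 and 2785 CPM at 3 h, 2433 and 2474 at 6 h, and 2173 and 2255 at 12 h. It was above the control at 3 and 6 h and inside the control range at 12 h. Its fold change was 0.26 at 3 h (SE 0.055, edgeR adjusted p = 0.000373), but 0.09 (edgeR adjusted p = 0.182) with library totals. It was 0.13 at 6 h (SE 0.055, edgeR adjusted p = 0.0589, and called with RLE factors, by DESeq2 and without control replicate 1 at 0.20, but -0.00 with library totals and 0.06 without control replicate 2). At 12 h it was -0.02 (SE 0.055, edgeR adjusted p = 0.768), and 0.05 without control replicate 1. The summed level of 13 fibroblast markers moved as well, from 6008 to 6589 CPM in the control to 2305 to 2515 after 12 h without amino acids and 3645 to 3721 after 12 h without glucose, where Vim was at 98.6% of the control. Their part in the change of Vim was not tested.

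**Figure D2:**
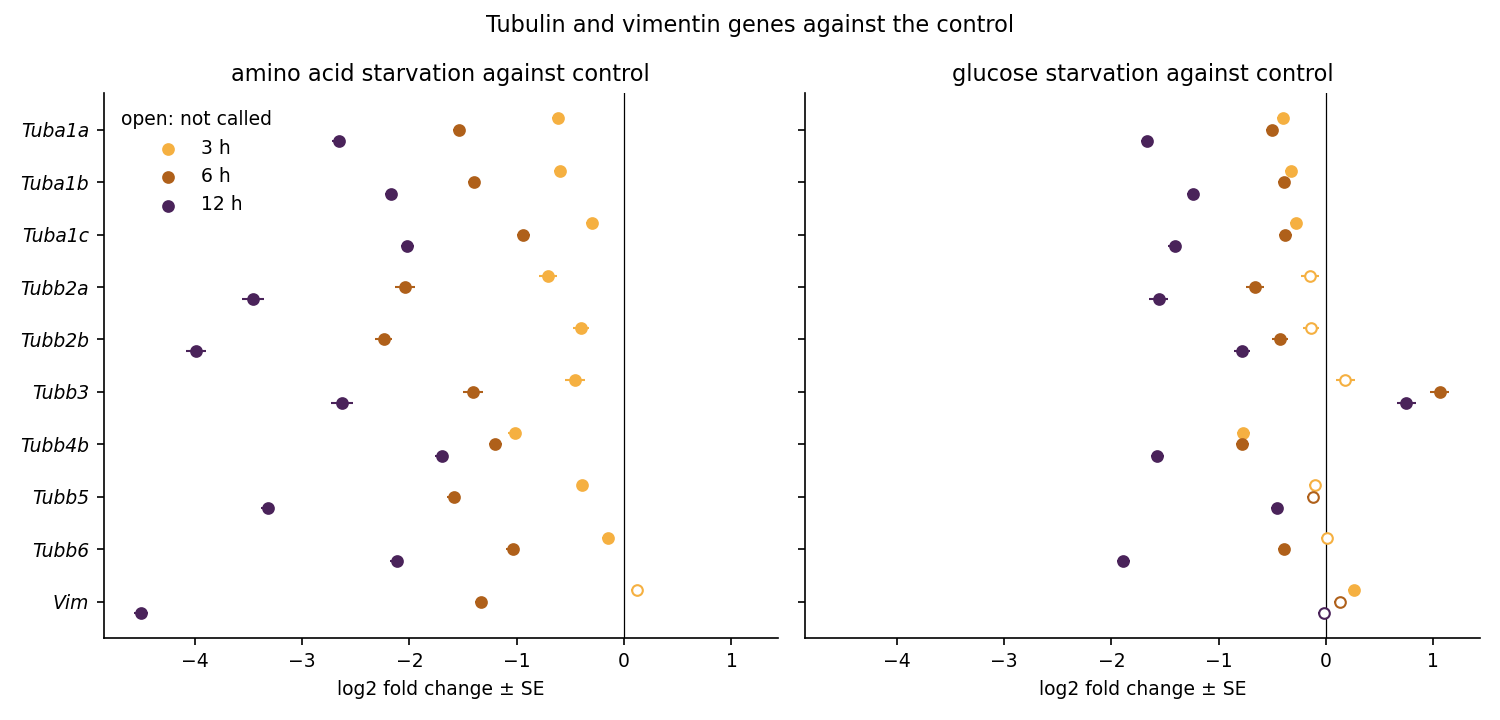
Log2 fold change against the control with its SE for each gene at 3, 6 and 12 h of amino acid (left) and glucose starvation (right), open points being those not called. The values without amino acids spread out to -4.50 for Vim at 12 h, and without glucose they reach from -1.89 for Tubb6 to 1.06 for Tubb3.

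Among all genes tested, these were large changes without amino acids. Vim at 12 h was the 5th lowest of the 9769 genes whose mean log2 CPM reached 3, Tubb2b the 18th, Tubb2a the 30th and Tubb5 the 39th. Over all 17696 genes, 0.531% were at or below Vim and 7.0% at or below Tubb4b, the least changed of the 10. Without glucose at 12 h, 4.56% of genes were at or below Tubb6, 27.1% at or below Tubb5, 48.1% at or below Vim and 84.4% at or below Tubb3.

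**Figure D3:**
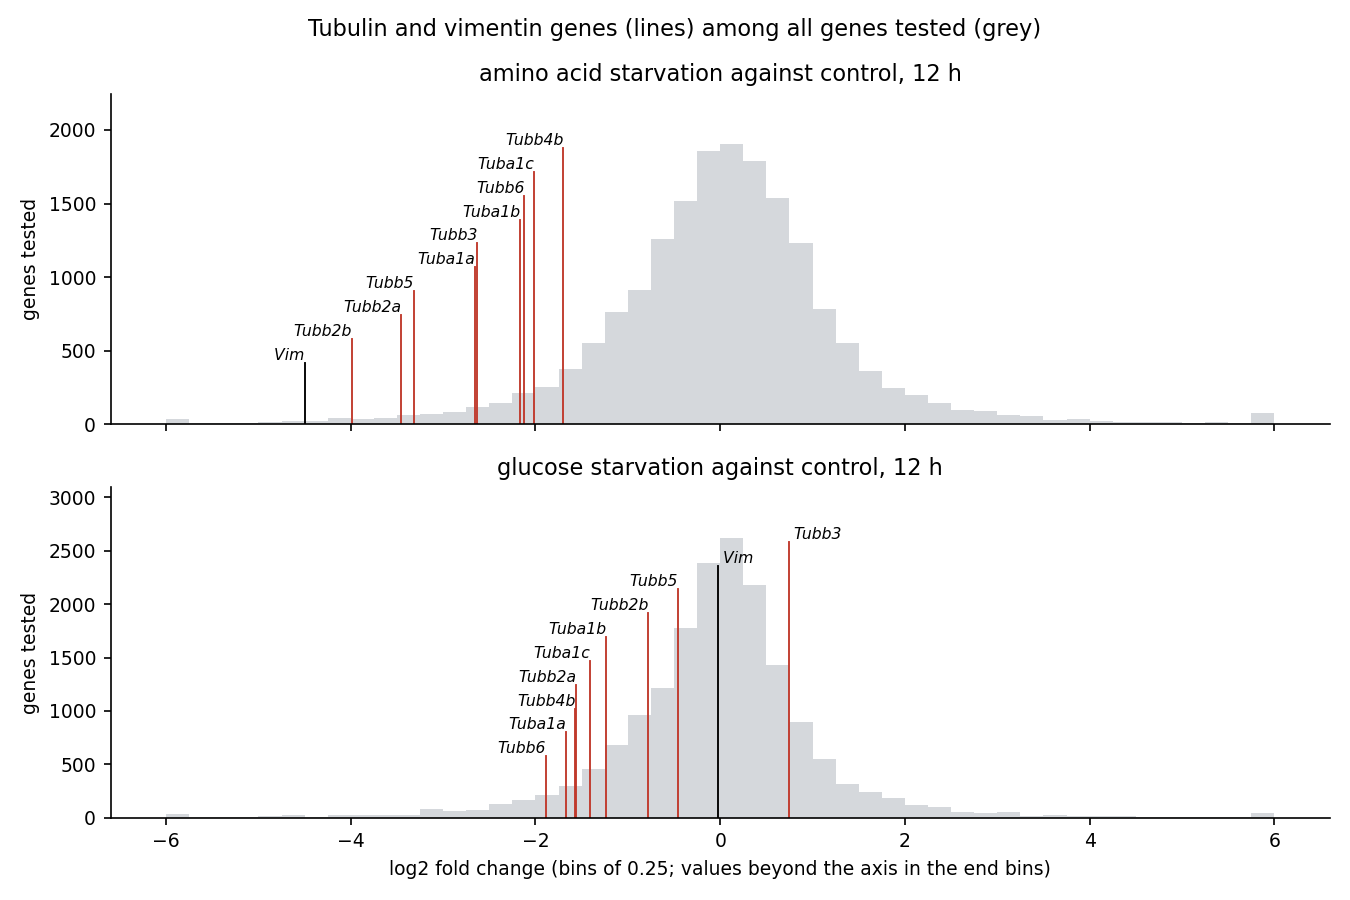
Number of genes tested by log2 fold change at 12 h against the control (grey bars), with the 10 genes as lines whose height only separates the labels. Without amino acids (top) all lines lie left of -1.5, and without glucose (bottom) they run from Tubb6 to Tubb3 with Vim near 0.

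Set directly against each other at the same time, amino acid starvation gave the lower levels. At 3 h 9 of 10 genes were lower without amino acids than without glucose and 0 higher (background 27.7% lower, 26.7% higher). At 6 h 10 were lower (32.3% and 31.5%), and at 12 h 9 (31.6% and 32.5%). The difference for Vim was -0.13 at 3 h (SE 0.055, edgeR adjusted p = 0.0467), -1.46 at 6 h (SE 0.056) and -4.48 at 12 h (SE 0.064, edgeR adjusted p = 1.4e-28), the last being the 2nd lowest of 9769 genes. Tubb3 differed by -0.64 (SE 0.092), -2.46 (SE 0.095) and -3.38 (SE 0.1), Tubb2b by -0.26 (SE 0.075), -1.82 (SE 0.082) and -3.22 (SE 0.093), and Tubb5 by -0.29 (SE 0.054), -1.47 (SE 0.055) and -2.86 (SE 0.058). For these 4 genes and Tubb2a (-0.56, -1.38 and -1.90) the difference was larger at each later time. Tuba1a and Tuba1b differed by about as much at 12 h (-0.99 and -0.93) as at 6 h (-1.04 and -1.01). Tuba1c did not pass at 3 h (-0.02, SE 0.059, edgeR adjusted p = 0.827) and differed by -0.56 and -0.61 later. For Tubb6 and Tubb4b the values were smaller at 12 h than at 6 h, a change that was not tested: Tubb6 differed by -0.65 at 6 h and -0.23 at 12 h, and Tubb4b by -0.42 at 6 h and -0.13 at 12 h (SE 0.059, edgeR adjusted p = 0.0547; 0.11 with library totals). With library totals, which moved the share of higher calls among all genes at 12 h from 50.8% to 65.5%, Tubb6 at 12 h was 0.01. Where no single library was left out, the count of 9 at 3 h became 7 to 9. Vim lost its call at 3 h with the stricter filter (-0.11), the second transcript row (-0.13) and only the groups compared (-0.12). It was also lost without glucose replicate 2 (-0.07). So it was without either amino acid library at 3 or 6 h, or either glucose library at 6 or 12 h. Tubb6 lost its call with only the groups compared (-0.14), without glucose replicate 2 (-0.12) or without either 3 h amino acid library (-0.16, -0.15). Tubb2b lost its call without glucose replicate 2 (-0.19).

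The change from 3 to 12 h was tested within each starvation and then between them. The control levels are not part of these comparisons, though the control libraries enter the shared fit. Without amino acids 10 of 10 genes fell further over this time (background 32.9% lower, 35.5% higher), from -0.69 for Tubb4b to -4.62 for Vim, with a median of -2.11 against 0.04 over all genes. Without glucose 9 fell and 1 rose (background 25.5% lower, 31.8% higher), from -1.90 for Tubb6 to 0.57 for Tubb3. The difference of these changes was negative and called for 8 of 10 (background 25.7% lower, 21.7% higher), meaning a larger fall without amino acids. It was -4.35 for Vim (SE 0.082, edgeR adjusted p = 2.79e-25), -2.95 for Tubb2b (SE 0.12), -2.74 for Tubb3 (SE 0.14) and -2.57 for Tubb5 (SE 0.078). The remaining called genes were Tubb2a at -1.35 and the α-tubulins at -0.59 to -0.77. Tubb4b (0.12, SE 0.084, edgeR adjusted p = 0.261) and Tubb6 (-0.08, SE 0.083, edgeR adjusted p = 0.474) did not pass. With library totals Tubb4b did at 0.37, and Tubb6 turned to 0.17. With library totals the share of higher genes among all calls went from 51.9% to 68% for the change without amino acids and from 45.8% to 66.1% for the difference.

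The isotypes differed enough to change the make-up of the β-tubulin mRNA. In CPM per kb, Tubb5 made up 62.6% of the 6 β-isotypes in the control, 41% after 12 h without amino acids and 76.7% after 12 h without glucose. Tubb4b went the other way, from 18.8% to 37.7% and 10.6%. Tubb6 stood at 11.3%, 17.0% and 5.16%, and Tubb3 at 1.01%, 1.07% and 2.87%. The fall of Tubb4b by 3 h showed as a share of 12.8% without amino acids and 12.6% without glucose, before the courses separated. Tubb2a and Tubb2b together stayed a minor fraction (3.76% and 2.52% in the control). Among the α-isotypes, whose split is uncertain as described above, Tuba1b made up 47.2% in the control, 49.5% and 52.3% after 12 h without amino acids and without glucose, and Tuba1a 26.9%, 20.2% and 22.2%. These shares are descriptions without a test.

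**Figure D4:**
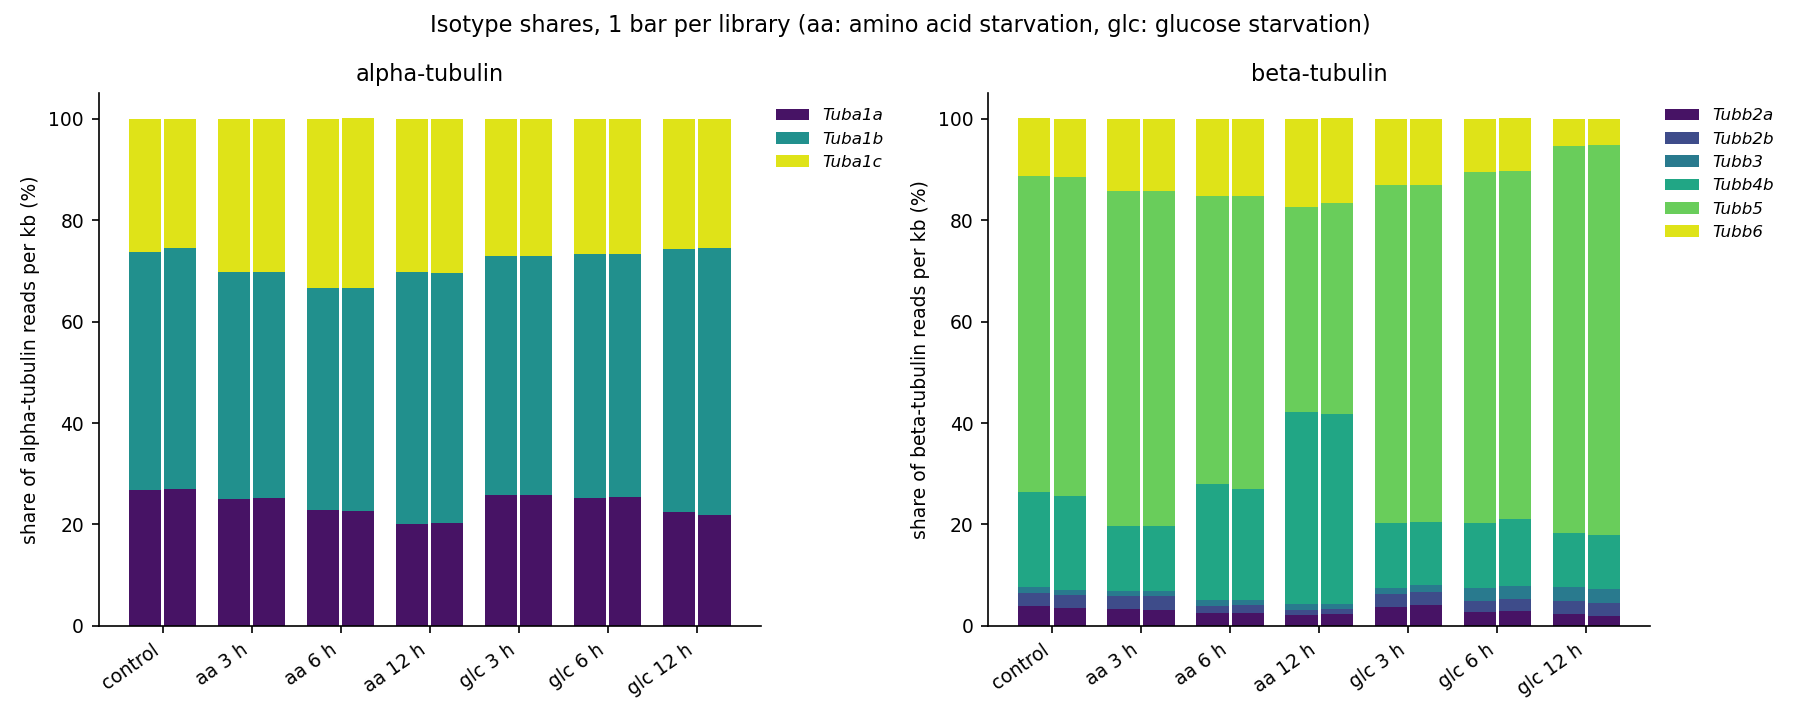
Share of each isotype in the summed CPM per kb of the 3 α-tubulin (left) and 6 β-tubulin genes (right), 1 bar per library. Tubb4b takes 37.7% of the β-tubulin sum after 12 h without amino acids and 10.6% after 12 h without glucose, and libraries of a group are close to each other.

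Summed over isotypes, α-tubulin was at 0.696, 0.407 and 0.211 of the control at 3, 6 and 12 h without amino acids, and β-tubulin at 0.722, 0.364 and 0.153. Without glucose the ratios were 0.792, 0.749 and 0.382 for α-tubulin and 0.877, 0.836 and 0.593 for β-tubulin. The ratio of α- to β-tubulin mRNA per kb was 2.25 and 2.24 in the control libraries, 3.06 and 3.15 after 12 h without amino acids, and 1.46 and 1.43 after 12 h without glucose. The ratio thus moved apart between starvations although both sums fell. Vim per unit of tubulin mRNA was 0.213 and 0.216 in the control, 0.329 and 0.335 at 3 h without amino acids, 0.0488 and 0.0492 at 12 h, and 0.467 and 0.478 after 12 h without glucose.

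Over the 14 libraries, the log2 CPM of Vim went most closely with Tubb5 (Pearson r 0.98) and Tubb2b (0.97) within the set, and those 2 tubulins with each other (0.99). Tuba1a went with Tuba1b (0.99) and Tuba1c (0.98), genes whose division of reads is uncertain as described above. Tuba1c went as closely with Tubb6 (0.98), and Tubb2a lay close to both sides (0.99 with Tuba1b, 0.97 with Tubb2b). Tubb4b and Tubb3 had an r of 0.45. Among 9140 genes outside the set, the 5 most like Tubb5 were Acot7 (0.997), Lrrc59 (0.997), Mvp (0.995), Flot1 (0.995) and Emp3 (0.994). For Vim they were Hsp90ab1 (0.997), Lrrc59 (0.994), Gp1bb (0.992), Tnfaip1 (0.991) and Parva (0.99). For Tuba1b they were Ehd2 (0.996), Sh3bp4 (0.99), Ifitm3 (0.99), C1ra (0.988) and Col6a2 (0.987). Hsp90ab1, a cytosolic chaperone, had mean levels of 4350, 1057 and 4246 CPM in the control and at 12 h without amino acids and without glucose, and Ehd2, a membrane-remodelling ATPase at caveolae, 227, 23.5 and 62.4 CPM. The libraries share groups of 2, so these correlations describe how 7 group levels vary together and carry no test.

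Genes that work with tubulin did not all follow it. In the counts of the lists below, the shares of all 17696 genes are those given above: without amino acids 32.1%, 33.3% and 32.0% fell and 27.9%, 32.3% and 34.9% rose at 3, 6 and 12 h, and without glucose 23.1%, 24.2% and 28.0% fell and 20.3%, 23.3% and 30.4% rose. The medians over all genes lay between -0.07 and 0.06. Of 11 other tubulin genes 6 were tested, and 4, 6 and 2 of them fell at 3, 6 and 12 h without amino acids while 0, 0 and 1 rose (medians -0.91, -0.98 and -0.40), the 2 of 6 at 12 h being near the 32.0% of all genes. Tuba4a, another α-isotype, went from 60.3 and 57.1 CPM in the control to 24.4 and 24.5 and to 22.7 and 21.5 at 12 h without amino acids and without glucose (log2 fold change -1.27 and -1.41). Tubg1, the γ-tubulin that nucleates microtubules, had 114 and 104 CPM in the control and 51.1 and 50.8 after 6 h without amino acids (-1.10), and was at 86 and 80 at 12 h (-0.39). Tube1, the ε-tubulin of centrioles, went from 14.7 and 14.4 CPM to 5 and 5.47 at 3 h without amino acids (-1.47) and to 27.2 and 27.1 at 12 h (0.90). Without glucose 3, 2 and 3 fell and 0, 0 and 2 rose (medians -0.55, -0.44 and -0.41), Tube1 being at 27.1 and 27.5 CPM at 12 h.

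Most genes for tubulin folding were lower without amino acids than without glucose at 12 h. Newly made tubulin is folded by the CCT chaperonin with prefoldin and is paired by the tubulin cofactors. Of these 21 genes, 8, 14 and 15 fell without amino acids at 3, 6 and 12 h and 7, 6 and 4 rose (medians -0.04, -0.40 and -0.60). The counts at 3 h are near the 32.1% and 27.9% of all genes, and the falls at 12 h compare with 32.0%. Without glucose 0, 1 and 2 fell and 9, 7 and 8 rose (medians 0.15, 0.15 and 0.16), where 28.0% of all genes fell and 30.4% rose at 12 h. At 12 h 18 were lower without amino acids than without glucose and 2 higher, with a median difference of -0.63 (background 31.6% lower, 32.5% higher). Cct5, a chaperonin subunit, had 583 and 563 CPM in the control, 234 and 224 at 12 h without amino acids (-1.32, edgeR adjusted p = 3.78e-19) and 606 and 630 at 12 h without glucose (0.11, edgeR adjusted p = 0.0673). Cct2 went from 527 and 524 CPM to 227 and 242 and to 726 and 750 (-1.16 and 0.49). Tbcb, an α-tubulin cofactor, had 50.5 and 48.6 CPM in the control, 13.4 and 11.7 at 6 h without amino acids (-1.99) and 65.5 and 72.4 at 12 h without glucose (0.47). Tbcel, a tubulin-destabilising relative of the cofactors, rose in both, from 30.3 and 31.4 CPM to 81.9 and 82.2 without amino acids (1.41) and 56.7 and 56.1 without glucose (0.87) at 12 h.

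Of 12 genes of the tubulin mRNA decay pathway (Ttc5, Scaper and CCR4-NOT subunits), 6, 5 and 6 rose without amino acids at 3, 6 and 12 h and 5, 4 and 3 fell (medians 0.13, 0.06 and 0.23). The falls at 6 and 12 h are at or below the 33.3% and 32.0% of all genes, while 27.9%, 32.3% and 34.9% of all genes rose. Without glucose 2, 0 and 2 rose and 5, 4 and 2 fell (medians -0.16, -0.11 and -0.00). Ttc5, which recognises the tubulin start printed above, had 18.2 and 19.2 CPM in the control, 7.35 and 8.59, 8.24 and 8.67, and 15.4 and 15.2 without amino acids. Its fold change was -1.23 at 3 h (edgeR adjusted p = 4.77e-11) and -0.29 at 12 h (edgeR adjusted p = 0.0116), with its lowest levels at 3 and 6 h. Cnot1, the scaffold of CCR4-NOT, rose from 407 and 408 CPM to 681 and 656 at 6 h without amino acids (0.71) and fell to 321 and 303 at 12 h without glucose (-0.39). Cnot3 was at 108 and 101 CPM in the control, 193 and 182 at 12 h without amino acids (0.84) and 74.8 and 76.5 at 3 h without glucose (-0.47). Cnot6, a deadenylase, fell from 150 and 164 CPM to 77.7 and 72.7 at 12 h without glucose (-1.06).

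Of 15 enzymes that modify tubulin, 5, 6 and 4 rose and 6, 7 and 5 fell without amino acids (medians -0.08, -0.37 and -0.07), and 3, 3 and 3 rose and 7, 9 and 7 fell without glucose (medians -0.25, -0.28 and -0.13). Without amino acids the background at the 3 times was 27.9% to 34.9% higher and 32.0% to 33.3% lower, and the 5 of 15 that fell at 12 h are near it. Ttll12, of the tubulin tyrosine ligase-like family, had 185 and 172 CPM in the control and 73.7 and 73.6 at 6 h without amino acids (-1.28), and Hdac6, a tubulin deacetylase, 68.9 and 59.1 and then 38.2 and 32.2 (-0.86). Ttll4, a glutamylase, rose from 103 and 116 CPM to 190 and 187 (0.78) at the same time, and Ttll1, a subunit of a polyglutamylase, fell from 27 and 27.7 CPM to 12.5 and 13.7 (-1.06). Ttll1 was at 25.7 and 23.5 CPM at 12 h without amino acids (-0.15, edgeR adjusted p = 0.155), and without glucose at 14.9 and 17.8 at 3 h (-0.74). Of 31 microtubule-associated, nucleating and severing genes 28 were tested, with 9, 7 and 11 higher and 13, 15 and 11 lower without amino acids (medians -0.14, -0.17 and -0.05) and 2, 3 and 8 higher and 10, 9 and 13 lower without glucose (medians -0.09, -0.14 and -0.09). The 11 of 28 that rose and the 11 of 28 that fell at 12 h without amino acids are near the 34.9% and 32.0% of all genes. Mapre2, a plus-end binding protein, went from 59.3 and 58.3 CPM to 15.8 and 14.9 at 6 h without amino acids (-1.94), and Clip2, a linker protein, from 56.8 and 50.8 CPM to 17.2 and 15.4 at 12 h (-1.73). Stmn2, which binds free tubulin and is mainly neuronal, had 21.8 and 21.1 CPM in the control and 4.62 and 4.76 at 12 h without amino acids (-2.19). Map4, the main lattice-binding protein outside neurons, went from 408 and 394 CPM to 207 and 192 at that time (-1.01). Without glucose at 12 h Map4 was at 383 and 374 CPM (-0.09, edgeR adjusted p = 0.209).

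Motors walk along microtubules. Of 18 kinesin, dynein and dynactin genes, 3, 6 and 7 rose and 6, 9 and 7 fell without amino acids (medians -0.09, -0.10 and -0.11), and 2, 3 and 3 rose and 7, 10 and 6 fell without glucose (medians -0.05, -0.18 and 0.01). At 12 h without amino acids, 34.9% of all genes rose and 32.0% fell, near the 7 and 7 of 18 here. Dynll1, a dynein light chain, had 203 and 202 CPM in the control and 97 and 107 at 12 h without glucose (-0.99). Dctn1, a dynactin subunit, went from 172 and 144 CPM to 85.2 and 78.3 at 6 h without amino acids (-0.95), Dync1i2, a dynein intermediate chain, from 166 and 183 to 93.8 and 98.9 at 12 h (-0.85), and Kif3b, of kinesin-2, rose from 40 and 39.7 to 72.6 and 73.8 (0.88).

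Most other filament genes tested were lower at 6 and 12 h without amino acids, with courses that differed from that of Vim. Of 15 intermediate filament, lamin and linker genes 9 were tested, and 5, 8 and 7 fell and 1, 0 and 0 rose without amino acids (medians -0.51, -1.11 and -1.29), against 32.1%, 33.3% and 32.0% of all genes that fell. Without glucose 1, 3 and 6 fell and 3, 1 and 0 rose (medians -0.09, -0.09 and -0.75). Lmna, encoding the A-type lamins of the nuclear envelope, had 623 and 537 CPM in the control, 131 and 120 at 12 h without amino acids (-2.21, edgeR adjusted p = 1.93e-22) and 338 and 352 at 12 h without glucose (-0.75). Nes, encoding nestin, a partner of vimentin filaments, went from 231 and 234 CPM to 299 and 304 at 3 h without amino acids (0.38) and to 108 and 103 at 12 h (-1.14). At 12 h without glucose, where Vim was -0.02, Nes had fallen to 75.3 and 72.8 CPM (-1.65, edgeR adjusted p = 2.61e-20). Lmnb1 had 172 and 164 CPM in the control, 53 and 56.3 at 12 h without amino acids and 50.3 and 51.3 at 12 h without glucose (-1.62 and -1.72). Lmnb2 fell to 31.2 and 29.8 CPM at 6 h without amino acids from 97.1 and 85.1 (-1.58), stood at 58.3 and 53.9 at 12 h (-0.70), and was at 95.5 and 95.6 CPM at 12 h without glucose (0.07, edgeR adjusted p = 0.383).

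**Figure D5:**
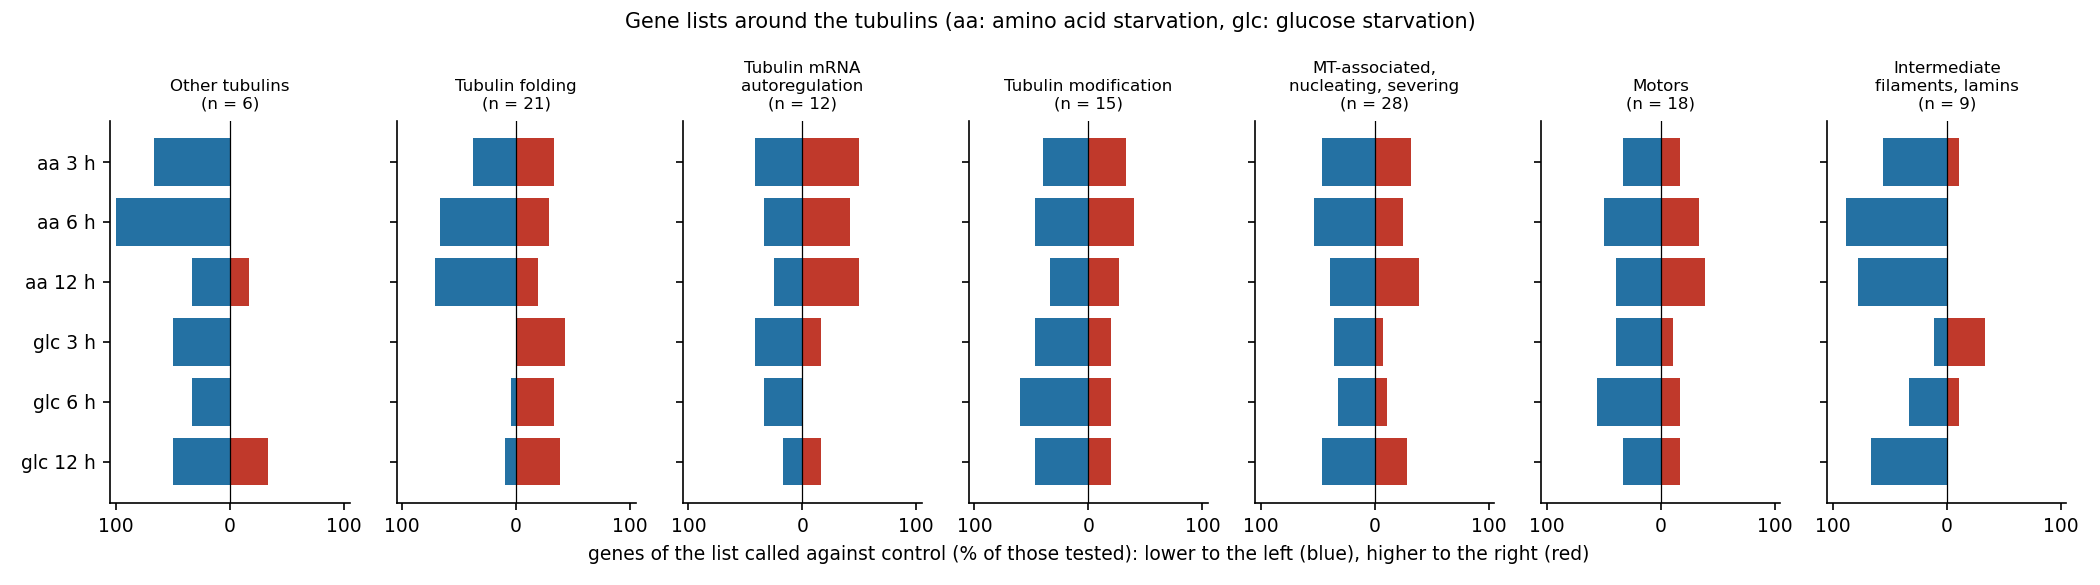
Share of the tested genes of each list that was lower (blue, left) or higher (red, right) than the control at each time of both starvations. At 12 h without amino acids 15 of 21 folding genes were lower, against 32.0% of all genes. At 12 h without glucose 8 of 21 were higher, against 30.4% of all genes, and 2 were lower, against 28.0%.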

How the data were processed

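Total RNA of 14 libraries was compared, with groups taken from the sample labels. The deposited values are raw counts, whole numbers of reads for each transcript, which the authors made with STAR, an aligner, and bedtools on the build GRCm39, per the submitters' processing notes. Their versions, the annotation release, the use of strand and the treatment of reads that match several genes are not given in the sources used here. Of 67457 lines, 58 named no gene and held 0% of reads. Transcripts of 1 gene repeat each other's reads, so the row with the highest read sum stood for a gene.

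Tests were run with edgeR 4.0.16 (with limma 3.58.1, in R 4.3.3; filterByExpr, TMM factors, robust quasi-likelihood fit of 7 group means to all 14 libraries, 7 residual degrees of freedom). P-values of the 12 two-sided comparisons were adjusted by Benjamini-Hochberg over 17696 genes, with a threshold of 0.05. The SE was derived from the test, as the absolute log2 fold change divided by the square root of the F statistic. The spread of each gene was drawn towards that of the other genes, with a median of 20.9 prior degrees of freedom. The p-values therefore rest largely on a spread shared over genes. The biological coefficient of variation was 5.78%. The fit was tried on simulated counts modelled on the control and the 12 h amino acid libraries, with few genes changed, equally up and down. Such counts do not test the scaling where many genes change. CPM per kb uses the deposited transcript length. The precision of each value is set by 2 libraries per group, not by read depth.

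The genes, the gene lists and the tests were chosen with earlier results of these data known. All 10 genes were named in full. From each list, up to 4 genes with the smallest p against the control and a mean log2 CPM of at least 3 were named, and the 5 genes with the highest Pearson r to Tubb5, Tuba1b and Vim. Alternatives were RLE factors, library totals, DESeq2 1.42.0, no filter (at least 1 read), a stricter filter (4 libraries with a CPM of 1), a fit of the compared groups alone, a replicate block, the second transcript row, and leaving out each library. Sums over near-identical tubulin genes were added after seeing the data. Markers of fibroblasts, neurons, epithelium, macrophages, endothelium and skeletal muscle were summed per library. Epithelial markers went from 42.2 to 43.5 CPM in the control to 2.23 to 2.5 at 12 h without amino acids (Krt19, with Cdh1 under 0.1 CPM), and endothelial ones from 4.21 to 5.08 to at most 23.5 CPM (Kdr). Macrophage markers were at 14.3 to 23.7 CPM, with Ptprc, Adgre1 and Aif1 under 0.1, and muscle markers at 1.32 to 7.15 CPM. Their part in the results was not tested. The reference used here is on GRCm38, and positions in the build of the files are not given, and no sequence of Tubb6 is printed.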

Additional observations from a re-analysis of the deposited data

Results flagged for a closer look

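For 8 of the 10 genes the change from 3 to 12 h differed between the starvations by the test of the difference itself (edgeR's quasi-likelihood test). The difference, amino acid minus glucose starvation on the log2 scale, was -4.35 for Vim, -2.95 for Tubb2b, -2.74 for Tubb3, -2.57 for Tubb5, -1.35 for Tubb2a, -0.77 for Tuba1a, -0.66 for Tuba1b and -0.59 for Tuba1c. For Tubb3 the changes had opposite signs, -2.17 without amino acids and 0.57 without glucose. For the other 7 the level fell over this time in both starvations, and the fall was larger without amino acids.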

How the results depend on the processing

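Of 120 results for the 10 genes, 107 were called. Under 22 alternatives these gave 2640 values, of which 2552 kept their direction and their side of the threshold, 49 newly passed it, 25 no longer passed it and 14 changed sign. In the setting with the second transcript row, the 8 genes with 1 row kept that same row. Many of the alternatives left out a library outside the groups compared, which leaves the fold change nearly as it was. The count of 2552 is therefore high in part by construction. With library totals the sign changed for Vim at 3 h without amino acids (-0.05) and at 6 h without glucose (-0.00), for Tubb6 at 3 h without glucose (-0.16), between the starvations at 12 h (0.01) and in the difference of changes (0.17), and for Tubb4b between the starvations at 12 h (0.11). The stricter filter turned Tuba1c between the starvations at 3 h (0.00). Leaving out 1 library at a time, Tubb6 ran from -0.06 to 0.08, Tubb2a from -0.30 to 0.00 and Tubb2b from -0.27 to 0.00 at 3 h without glucose, Vim from -0.09 to 0.05 at 12 h without glucose, and Tuba1c from -0.08 to 0.04 between the starvations at 3 h. Library totals moved the median of all genes by -0.17 at 3 h of both starvations, -0.13 at 6 h without glucose, 0.13 at 12 h without amino acids, 0.24 between the starvations at 12 h, 0.31 for the change without amino acids and 0.25 for the difference of changes. With them, 8 genes were lower and 0 higher at 3 h without glucose, and 1 was higher in the difference of changes.

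At 3 h without amino acids 1 gene (Vim) was higher with RLE factors, DESeq2, the stricter filter, the second transcript row and only the groups compared, and 0 to 1 when each library was left out. At 6 h without glucose 2 were higher with RLE factors, DESeq2, no filter, the stricter filter and the second row, and 1 to 2 when leaving out a library. At 3 h without glucose, leaving out a library gave 1 to 2 higher and 4 to 7 lower. The 12 h counts against the control kept 10 lower without amino acids under every alternative.

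No pairing by replicate number was seen: over 21 pairs of groups the correlation of same-numbered deviations was -0.0352 to 0.0537. It was taken over all genes tested, where noise of genes with few reads lowers it, so it cannot show that the samples were unpaired. With the replicate number as a block, 1 gene was higher at 3 h without amino acids and 2 at 6 h without glucose, against 0 and 1 without the block. With 2 libraries a group, the smallest difference that was called depended on the gene. Vim at -0.13 between the starvations at 3 h (SE 0.055) was called. Tubb3 at 0.18 after 3 h without glucose (SE 0.089) was not.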

Other observations

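Changes of the fitted group levels between neighbouring times are given here on the log2 scale without a test. They are totals over intervals of 3, 3 and 6 h, so they are not rates unless given per hour. Without amino acids, Tubb4b changed by -1.02 from 0 to 3 h, -0.18 from 3 to 6 h and -0.50 from 6 to 12 h, the only one of the 10 genes whose first interval held the largest change. Tubb2b changed by -0.40, -1.85 and -1.75 over the same intervals, a halving every 1.63 h from 3 to 6 h if the fall was even. Per hour these changes were -0.13, -0.62 and -0.29. Tubb5 changed by -0.39, -1.20 and -1.73, or by -0.13, -0.40 and -0.29 per hour. Without glucose, the interval from 3 to 6 h was nearly flat for Tuba1a (-0.10), Tuba1b (-0.06), Tuba1c (-0.10), Tubb4b (-0.02) and Tubb5 (-0.02). It was followed by -1.17, -0.85, -1.03, -0.79 and -0.34 from 6 to 12 h. Vim changed by -0.13 and -0.15 over these intervals. Tubb2a (-0.51, then -0.90), Tubb2b (-0.29, then -0.35) and Tubb6 (-0.40, then -1.50) were already lower in the earlier one, and Tubb3 changed by 0.88 and then -0.31.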
